A study of Mus musculus with 56 samples.

Results

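The genes examined here were the 10 genes of sterol efflux, cholesterol esterification and the liver X receptors (LXR) that were listed by name: Abcg5, Abcg8, Abca1, Abcg1, Nr1h3, Nr1h2, Lpcat3, Scarb1, Soat2 and Lcat. The genes were listed by function, with earlier results of these livers known. All 10 were found among the 52230 genes of the files, and all 10 passed the filter on low counts in each of the 15 comparisons. Liver RNA came from 56 male mice of the P446L line (GCKR-P446L-EMI-B6N), in which Gckr, the gene of the protein that holds glucokinase inactive in the nucleus, encodes proline (P) or leucine (L) at residue 446. All mice, controls included, were kept for 20 weeks on pellets with 45% fat and on water with 10% glucose and 5% fructose (HFHSD). The groups without further treatment were PP (446P, n = 10), PL (446P/L, n = 8) and LL (446L, n = 10). The groups with a glucokinase activator (GKA, 3 mg/kg) were PP (n = 10), PL (n = 8) and LL (n = 10). PP mouse 7 was left out here, so that n = 9 for PP without GKA and 55 livers were used. The allele is carried in every tissue of the mouse, and liver was the only tissue measured here.

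The LXRs are nuclear receptors that bind oxysterols and act on DNA together with the retinoid X receptor. In hepatocytes they raise transcription of genes that remove cholesterol from the cell. Cholesterol leaves the liver through the canalicular membrane into bile, or through the sinusoidal membrane onto high-density lipoprotein (HDL). Abcg5 and Abcg8 encode the partners of the canalicular sterol exporter. Abca1 loads lipid onto apolipoprotein A-I and Abcg1 onto HDL particles. Nr1h3 encodes LXR alpha, the main form in liver, and Nr1h2 encodes the broadly expressed LXR beta. Lpcat3 adds polyunsaturated chains to phospholipids, Scarb1 is the HDL receptor that takes up cholesterol esters, Soat2 esterifies cholesterol within the hepatocyte, and Lcat is secreted and esterifies it in plasma.

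Total reads were 5189852 to 8093368 per mouse (median 6555851). The marker genes of hepatocytes were high in each group, with a summed level of 79550.7 to 131147 CPM (reads scaled to a common library size) over 8 genes. Of 6 intestinal markers, which matter here since intestine also expresses Abcg5, Abcg8 and Soat2, 5 had a median of 0 reads (Vil1, Lct, Alpi, Cdx2 and Sis). The sixth, Fabp2, had a median of 122 CPM over the livers. Gckr, the edited gene, averaged 183 ± 26.2 CPM in the PP livers (SD, n = 9), 176 ± 27.0 CPM in the PL and 152 ± 20.3 CPM in the LL livers, with -0.26 on the log2 scale for LL against PP (SE 0.09, edgeR adjusted p 0.238). Over both treatments it was -0.21 (SE 0.06, edgeR adjusted p 0.0327). Reads summed per gene do not show the base at codon 446, so the genotype itself was not checked.

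Abcg5 and Abcg8 are neighbours on chromosome 17 (GRCm39). Abcg5 spans chr17:84964851-84990494 on the minus strand and Abcg8 spans chr17:84983730-85007765 on the plus strand. In the GENCODE vM39 annotation their leading transcripts start head to head, with 12 bases between their first exons. The run below is shown because both leading transcripts start from it in this annotation. It covers chr17:84990431-84990460 on the plus strand, with the bases between the first exons in capitals.
Abcg5 to Abcg8: ttcaccaatTTGGCCAACGATgccattatc
The GATA letters AGATAA, searched on both strands within 100 bases of these exon edges, were found at chr17:84990422-84990427 (plus strand), chr17:84990456-84990461 (minus strand) and chr17:84990486-84990491 (minus strand). All 3 lie within the first exons annotated by GENCODE, but this depends on the annotation. From the RefSeq start of Abcg8, used for the promoter windows below, their first bases lie at -127, -93 and -63 (minus is upstream). From the RefSeq start of Abcg5 they lie at 13, -22 and -52. The third match is printed with its flanks (chr17:84990474-84990503, plus strand), with its letters, which read TTATCT on this strand, in capitals.
GATA letters by Abcg8: gccagagtgtccTTATCTcgacaataggca
Annotated exons of Abcg5 and Abcg8 also overlap on opposite strands. The strand setting of the counting was not given in the sources used here, so reads in that stretch could belong to either gene.

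Levels were compared between genes per length, as RPKM (reads per kilobase of protein-coding transcript, scaled to library size by TMM). Over the 55 livers Lcat was the most abundant, at 221 ± 38.7 RPKM. Nr1h3 followed at 47.5 ± 6.14 RPKM, then Lpcat3 at 40.6 ± 7.99, Scarb1 at 37.9 ± 7.87, Abcg5 at 34.7 ± 11.4 and Abcg8 at 29.4 ± 9.13 RPKM. The lower tier held Abca1 at 10.8 ± 2.30 RPKM, Soat2 at 10.7 ± 1.97 and Nr1h2 at 10.6 ± 2.07. Abcg1 was last at 0.607 ± 0.242 RPKM. LXR alpha mRNA was thus above LXR beta mRNA, with every Nr1h3 value (lowest 34.2 RPKM) above every Nr1h2 value (highest 16.5 RPKM). Lcat exceeded Nr1h3 in 55 of 55 livers and Nr1h2 exceeded Abcg1 in 55 of 55. Among neighbours within a tier, Nr1h3 exceeded Lpcat3 in 43 of 55 livers and Abcg5 exceeded Abcg8 in 43. The order was less clear for Scarb1 over Abcg5 (35 livers) and Lpcat3 over Scarb1 (33), and Abca1 exceeded Soat2 in 27 and Soat2 exceeded Nr1h2 in 26. The ranges of all neighbours within a tier overlapped.

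**Figure D1:**
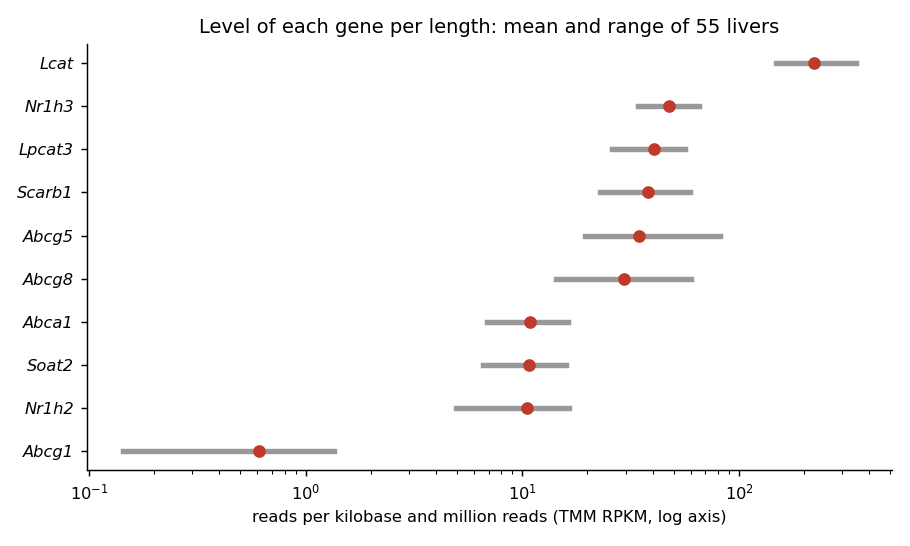
Level of each of the 10 genes per length (TMM RPKM, log axis); points are means and grey bars run from the lowest to the highest of 55 livers. Lcat (221 RPKM) stands above all others, Abcg1 (0.607 RPKM) below, and the other 8 fall into an upper and a lower tier.

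The canalicular exporter genes had the largest differences by LL genotype among the 10 genes in the livers without GKA. Values below are normalised read counts in CPM with TMM scaling, given for each group as the lowest, median and highest mouse. Abcg8 was 49.8, 64.8 and 75.5 CPM in PP (n = 9), 66.0, 78.0 and 113 CPM in PL (n = 8) and 51.5, 92.0 and 125 CPM in LL (n = 10). Of the 10 LL livers, 9 were above the highest PP liver, and LL mouse 42, at 51.5 CPM, was the exception. In bulk liver, fewer cells of a type and less RNA per cell cannot be told apart. By LL genotype Abcg8 had a log2 fold change of 0.54 (SE 0.14; 1.46-fold, 95% confidence interval 1.20 to 1.77), with an edgeR unadjusted p of 0.000643 and an adjusted p over all genes of 0.104. With edgeR it was therefore not a differentially expressed gene (DEG), which needed an adjusted p below 0.05 and a fold of at least 1.3 or at most 0.7. PL lay between PP and LL, with a log2 fold change of 0.34 against PP (SE 0.11, edgeR unadjusted p 0.00443, adjusted 0.225), and all 8 PL livers were above the PP mean.

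Abcg5, the partner gene, was 42.1, 61.1 and 66.8 CPM in PP, 40.7, 68.1 and 81.6 CPM in PL and 39.6, 75.0 and 108 CPM in LL. Of the LL livers, 8 were above the highest PP liver, while the lowest LL value was below the lowest PP value. Its log2 fold change in LL against PP was 0.47 (SE 0.15; 1.39-fold, interval 1.12 to 1.73; edgeR unadjusted p 0.00507, adjusted 0.183). For PL against PP it was 0.11 (SE 0.15; edgeR unadjusted p 0.452). DESeq2, run on the same mice, called Abcg8 (0.54, adjusted p 0.0153) and not Abcg5 (0.47, adjusted p 0.0979), with 1.15% of 9577 genes called. The study, which used DESeq2 and the same thresholds, reported both genes as up-regulated by LL genotype on this diet.

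Whether Abcg5 and Abcg8 were called turned on single mice, while the estimates moved little when 1 mouse was left out. Over 19 such fits the log2 fold change was 0.41 to 0.55 for Abcg5 and 0.48 to 0.61 for Abcg8. The edgeR adjusted p was below 0.05 in 1 of the 19 for each gene. Without LL mouse 42 the edgeR adjusted p was 0.0388 for Abcg5 (log2 fold change 0.55) and 0.0185 for Abcg8 (0.61), so that both were DEGs. The share of all genes called in that fit is not reported here, so these calls are not read as particular to Abcg5 and Abcg8. PP mouse 7, which was left out, had 126 CPM of Abcg5 and 134 CPM of Abcg8, above every LL liver. With that mouse kept, the log2 fold changes were 0.30 for Abcg5 (edgeR unadjusted p 0.116) and 0.39 for Abcg8 (unadjusted p 0.0295).

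With GKA neither gene passed the test by LL genotype. Abcg8 was 36.5, 66.0 and 159.5 CPM in PP with GKA (n = 10), 47.7, 77.5 and 104 CPM in PL (n = 8) and 62.0, 78.3 and 129.5 CPM in LL (n = 10). LL differed from PP by 0.27 on the log2 scale (SE 0.21, edgeR unadjusted p 0.223). Abcg5 was 35.6, 57.8 and 159 CPM in PP, 40.8, 59.3 and 80.9 CPM in PL and 48.7, 58.8 and 84.9 CPM in LL, with a log2 fold change of -0.02 (SE 0.21, unadjusted p 0.927). The groups overlapped fully, and 1 PP liver (mouse 14) was the highest of all 55 used for both genes. Without mouse 14 the values were 0.49 for Abcg8 and 0.23 for Abcg5 (edgeR adjusted p 0.222 and 0.596). The interaction of GKA with LL genotype, which tests whether the difference by genotype changed with GKA, was -0.49 for Abcg5 (SE 0.27, edgeR unadjusted p 0.0741, adjusted 0.886) and -0.27 for Abcg8 (SE 0.26, unadjusted p 0.306). Neither passed the threshold.

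**Figure D2:**
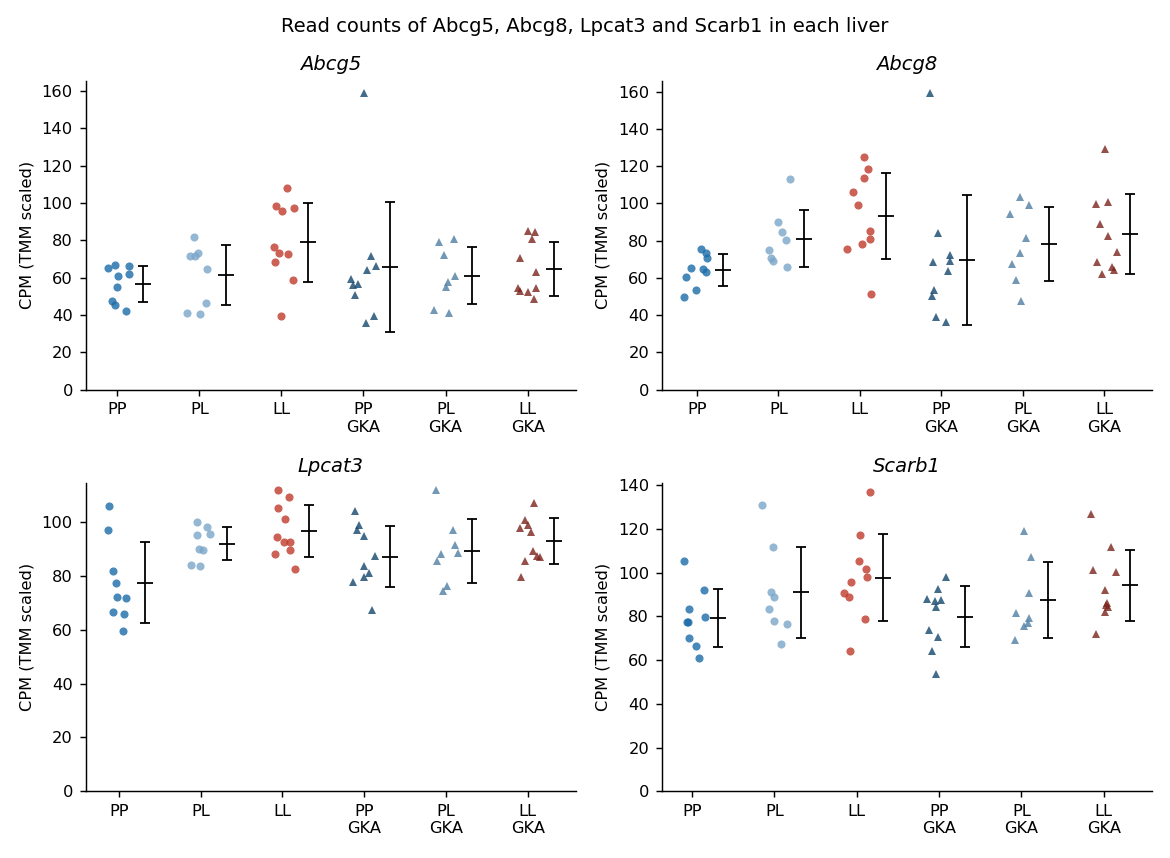
CPM of Abcg5, Abcg8, Lpcat3 and Scarb1 in each of the 55 livers (circles without GKA, triangles with GKA), with mean and SD beside the points. For Abcg8, 9 of 10 LL livers without GKA lie above all 9 PP livers; the highest point for Abcg5 and Abcg8 is PP mouse 14 with GKA.

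In a fit over both treatments (55 mice), Abcg8 was 1.32-fold higher in LL than in PP (log2 fold change 0.40, SE 0.12, interval 0.15 to 0.65; edgeR unadjusted p 0.00241, adjusted 0.0576). It was not called by edgeR but was by DESeq2 (adjusted p 0.0405, among 1.84% of 12007 genes). Leaving out PP mouse 14 or 17 with GKA, LL mouse 42, or LL mouse 48, 49 or 51 with GKA brought the edgeR adjusted p below 0.05, with the lowest, 0.00186, without mouse 14. That was 6 of 39 fits, and the highest adjusted p was 0.109. Abcg5 had 0.22 (SE 0.13, edgeR unadjusted p 0.108). This fit uses the same mice as the separate comparisons and is not further evidence.

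Genes of the circadian clock also differed by genotype in these livers. Of 16 clock genes, 4 were higher and 4 lower in LL than in PP over both treatments at an adjusted p below 0.05 (edgeR, 3.84% of all genes). Their first principal component (61.1% of their variance, scored higher where Dbp and Tef are higher) was -0.631 ± 0.554 in PP, 0.574 ± 0.799 in PL and 0.517 ± 0.787 in LL without GKA. With GKA it was -0.884 ± 1.296, 0.553 ± 0.542 and 0.0330 ± 0.757. The labels give no time of harvest. With this component as a covariate, the log2 difference between LL and PP without GKA was 0.23 for Abcg8 (edgeR unadjusted p 0.141) and 0.08 for Abcg5 (unadjusted p 0.643). Over both treatments it was then 0.07 for Abcg8 and -0.16 for Abcg5. The component itself differed between the genotype groups, so as a covariate it also takes up difference by genotype. Clock state and genotype cannot be told apart here.

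Lpcat3 (chromosome 6, 124639765 to 124684440) encodes the acyltransferase that remodels phospholipids. It was 59.5, 72.0 and 106 CPM in PP, 83.5, 92.5 and 99.8 CPM in PL and 82.6, 93.5 and 112 CPM in LL. All 10 LL livers and all 8 PL livers were above the PP mean of 77.5 CPM, while 2 PP livers lay within the LL range. Lpcat3 had a log2 fold change of 0.32 for LL against PP (SE 0.10, edgeR unadjusted p 0.00464, adjusted 0.176) and 0.25 for PL against PP (SE 0.10, unadjusted p 0.0267). These comparisons share the PP mice. With GKA the values were 67.4, 85.4 and 104 CPM in PP, 74.4, 88.2 and 112 CPM in PL and 79.4, 92.7 and 107 CPM in LL, and LL differed from PP by 0.10 on the log2 scale (SE 0.08, unadjusted p 0.206). Over both treatments Lpcat3 was 1.15-fold higher in the LL livers (0.20 on the log2 scale, SE 0.06, interval 0.08 to 0.32; edgeR adjusted p 0.0421). This was the only value of the 10 genes below an adjusted p of 0.05 with edgeR, and its fold was under the 1.3 needed for a DEG. In this fit 3.84% of all genes were below 0.05, so the count is not read as particular to the 10. Leaving out 1 mouse at a time gave an adjusted p above 0.05 in 20 of 39 fits (0.0125 to 0.0820 over all). It was 0.305 with the clock component as covariate, and 0.501 when only protein-coding transcripts were summed (log2 fold change 0.16). Annotated exons of Lpcat3 overlap those of Emg1 on the opposite strand.

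Scarb1 (chromosome 5, 125353547 to 125418176), the HDL receptor, was 61.2, 77.6 and 105 CPM in PP, 67.5, 86.1 and 131 CPM in PL and 64.2, 96.8 and 137 CPM in LL. The groups overlapped, with 8 of 10 LL livers above the PP mean and 3 above the highest PP liver. For Scarb1 in LL against PP it came to 0.30 on the log2 scale (SE 0.12, edgeR unadjusted p 0.0208, adjusted 0.310). With GKA it was 53.5, 85.5 and 98.0 CPM in PP, 69.3, 80.3 and 119 CPM in PL and 72.0, 89.2 and 127 CPM in LL, a log2 fold change of 0.24 (SE 0.11, unadjusted p 0.0367, adjusted 0.443). The interaction of GKA with LL genotype was -0.06 for Scarb1 (SE 0.17, interval -0.39 to 0.28). Over both treatments it was 1.20-fold higher in the LL livers (0.27 on the log2 scale, SE 0.08; edgeR adjusted p 0.0581, DESeq2 adjusted p 0.0429), and 0.29 with the clock component as covariate. The edgeR adjusted p was below 0.05 without PP mouse 4, PP mouse 12 or 14 with GKA, LL mouse 42 or LL mouse 54 with GKA. That was 5 of 39 fits with 1 mouse left out (0.0288 to 0.117 over all).

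The receptors themselves differed little by genotype. Nr1h3 (chromosome 2, 91014394 to 91033417) was 57.6, 66.1 and 73.2 CPM in PP, 63.7, 72.7 and 84.1 CPM in PL and 56.4, 63.6 and 76.0 CPM in LL. LL and PP differed by -0.02 on the log2 scale (SE 0.07), and the interval ran from 0.898-fold to 1.09-fold. With GKA it was 58.4, 70.9 and 77.4 CPM in PP, 62.1, 71.5 and 84.8 CPM in PL and 62.2, 69.3 and 73.5 CPM in LL, a log2 fold change of 0.00 (SE 0.07). The highest Nr1h3 values were in the heterozygous PL group, with 0.14 against PP without GKA (SE 0.07, edgeR unadjusted p 0.0499) and -0.17 for LL against PL (SE 0.07, unadjusted p 0.0292). Their adjusted p values were 0.494 and 0.966. Nr1h2 (chromosome 7, 44199036 to 44203406) was 17.0, 19.4 and 21.4 CPM in PP, 16.1, 18.9 and 22.0 CPM in PL and 14.9, 20.7 and 23.4 CPM in LL. Between LL and PP the log2 difference was 0.06 (SE 0.08) without and -0.07 (SE 0.09) with GKA.

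Abca1 and Abcg1, the sinusoidal and HDL efflux genes, are among the best known LXR targets. Abca1 (chromosome 4, 53030787 to 53159900) was 88.8, 106 and 116 CPM in PP, 72.1, 107 and 150.2 CPM in PL and 77.1, 100.2 and 142 CPM in LL. PP lay inside the range of the other groups, and LL differed from PP by -0.06 on the log2 scale (SE 0.10, interval -0.27 to 0.16). With GKA it was 74.4, 117 and 161 CPM in PP and 78.6, 108 and 146 CPM in LL, with -0.02 (SE 0.15). The signs of these small values turned with the clock component as covariate (0.20 without and 0.07 with GKA), and neither passed the test. Abcg1 (chromosome 17, 31276649 to 31336969) had 3 to 63 reads per liver, which limits its precision. It was 1.93, 2.81 and 4.59 CPM in PP, 1.57, 2.92 and 4.63 CPM in PL and 0.697, 3.03 and 5.01 CPM in LL, a log2 difference of 0.02 between LL and PP. Its interval ran from 0.724-fold to 1.43-fold, and differences within it were not detectable at this depth. Macrophages also express Abcg1. Of 12 macrophage markers, all passed the filter over all 6 groups and 9 did in LL against PP without GKA. The summed level of the 12 was 281 ± 86.5 CPM for PP, 284 ± 97.1 CPM for PL and 288 ± 83.4 CPM for LL livers without GKA.

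The esterifying enzymes did not pass the test in any comparison. Soat2 (chromosome 15, 102058797 to 102071904) was 12.7, 17.8 and 19.8 CPM in PP, 16.9, 19.0 and 23.3 CPM in PL and 10.9, 18.9 and 25.2 CPM in LL. The LL values spread around those of PP, with a log2 fold change of 0.06 (SE 0.12). Lcat (chromosome 8, 106665839 to 106670046) was 126, 183 and 240.0 CPM in PP, 145, 200.7 and 257 CPM in PL and 175, 209.6 and 251.4 CPM in LL. Its lowest LL value was above the lowest PP value, but the log2 fold change of 0.14 (SE 0.11, edgeR unadjusted p 0.2) was within the spread between mice. With GKA the values were 0.14 (SE 0.12) for Soat2 and 0.05 (SE 0.09) for Lcat.

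**Figure D3:**
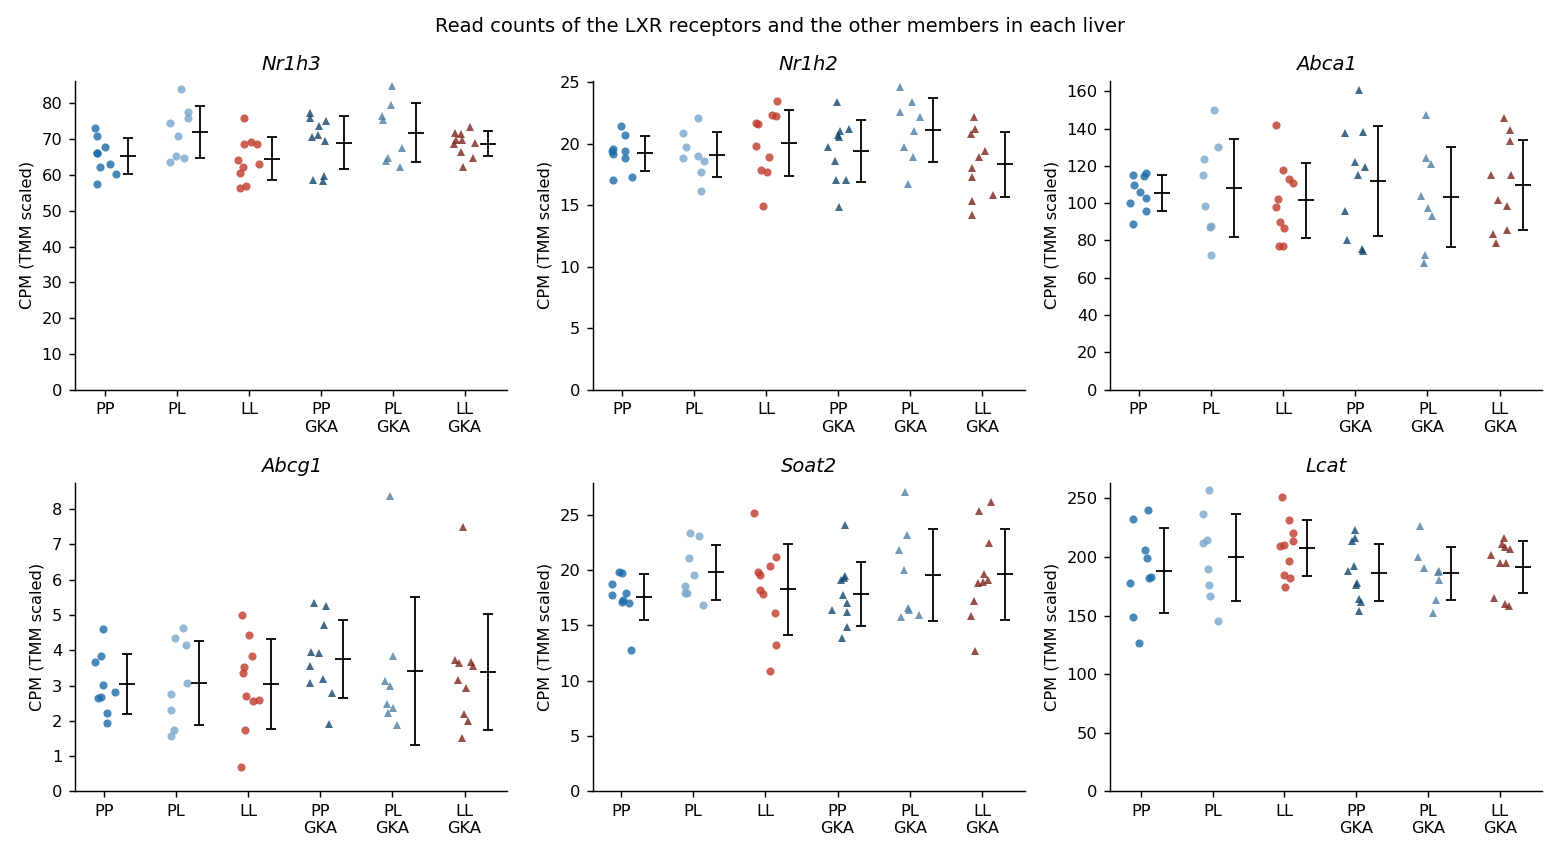
CPM of Nr1h3, Nr1h2, Abca1, Abcg1, Soat2 and Lcat in each of the 55 livers (circles without GKA, triangles with GKA), with mean and SD beside the points. The groups overlap in every panel; Abcg1, at 3 to 63 reads per liver, has the widest relative spread.

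Counted over the list, 4 of the 10 genes (Abcg5, Abcg8, Lpcat3 and Scarb1) were higher in LL than in PP without GKA at an unadjusted edgeR p below 0.05, where 6.15% of all 10537 genes were, and 0 were lower (5.69% of all genes). None was a DEG with edgeR (0.0854% of genes), and DESeq2 called 1. The median log2 fold change of the 10 was 0.10, against 0.01 over all genes. The list was made with earlier results of these livers known, so the shares over all genes are no neutral measure for it. Abcg5 and Abcg8 also varied together across livers (r 0.91) and are not separate counts. For PL against PP without GKA, 3 genes were higher at an unadjusted p below 0.05 (5.09% of genes; Abcg8, Lpcat3 and Nr1h3) and 0 lower (5.02%). For LL against PL 0 were higher (2.02%) and 1 was lower (2.56%; Nr1h3). With GKA the counts were 1 higher for LL against PP (5.27%; Scarb1) and 0 lower (5.11%), 0 in either direction for PL against PP (3.89% higher, 4.31% lower) and, for LL against PL, 0 higher (3.79%) and 1 lower (4.8%; Nr1h2, -0.20, unadjusted p 0.0474). None of these was a DEG with edgeR or DESeq2, where edgeR called 0.151%, 0.00942%, 0.239%, 0% and 0% of genes. DESeq2 called 0.797% of 11036 genes for LL against PP with GKA, and its shares for the comparisons with PL are not reported here. Over both treatments 3 genes were higher in LL than in PP at an unadjusted p below 0.05 (7.87% of genes; Abcg8, Lpcat3 and Scarb1), 0 were lower (8.1%) and 0 were DEGs with edgeR (1.7%; DESeq2 called 1, Abcg8). In the same fit 2 were higher in PL than in PP (6.82%; Nr1h3, 0.10, and Lpcat3, 0.13) and 0 lower (7.29%). For LL against PL 0 were higher (4.68%) and 1 was lower (4.14%; Nr1h3, -0.11). Neither comparison had a member at an adjusted p below 0.05 (1.91% and 0.453% of genes) or a DEG with edgeR or DESeq2 (edgeR, 1.05% and 0.34% of genes).

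**Figure D4:**
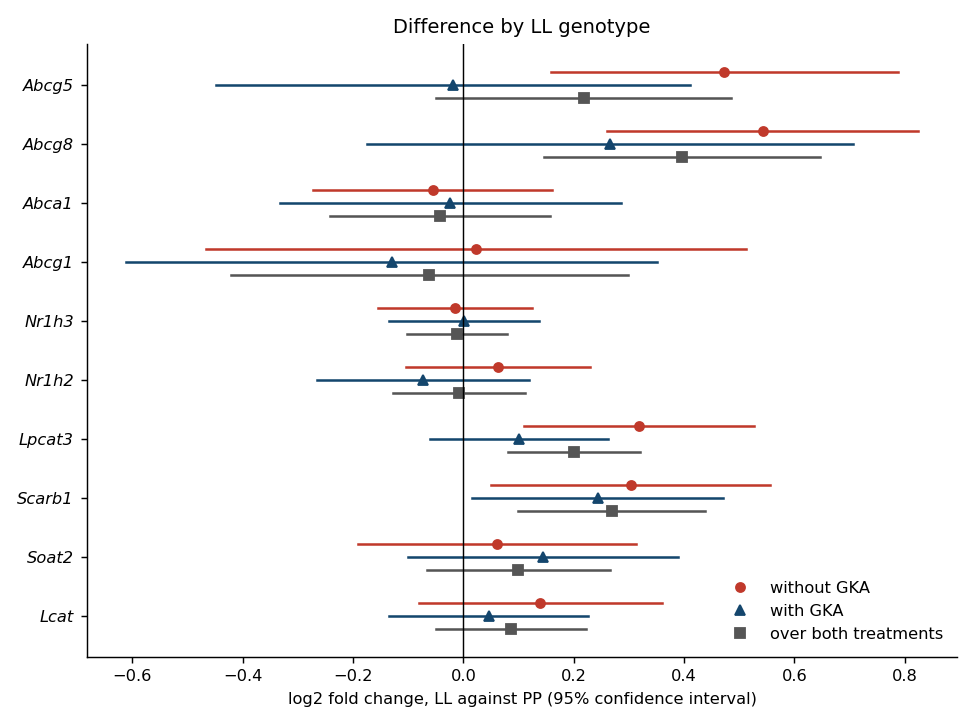
Log2 fold change by LL genotype (x axis) of the 10 genes with 95% confidence intervals, without GKA (circles), with GKA (triangles) and over both treatments (squares). The intervals of Abcg5, Abcg8, Lpcat3 and Scarb1 without GKA lie above 0; those of Nr1h3 and Nr1h2 are narrow and include 0, and those of Abcg1 are the widest.

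GKA itself was compared within each genotype and over all genotypes. None of the 10 genes was called with edgeR or DESeq2. For DESeq2 the shares over all genes, here and in the interactions below, are not reported. With edgeR 0 of 10548 genes in all were called in PP, 0 of 10399 in PL, 0 of 10458 in LL and 0 of 11477 over all genotypes (0% each), so the count says nothing particular of the 10. None had an unadjusted edgeR p below 0.05 in PP (1.49% of genes higher, 2.08% lower), in PL (1.47% and 1.71%), in LL (2.95% and 3.2%) or over all genotypes (2.6% and 2.68%). The smallest unadjusted p was 0.0830, for Abcg5 in LL, where GKA went with a log2 fold change of -0.28 (SE 0.15, interval -0.59 to 0.04). In PP the value for Abcg5 was 0.21 (SE 0.21). Over all genotypes the largest was Abcg1 at 0.21 (SE 0.15, unadjusted p 0.18). The macrophage markers lay the same way there, with 12 of 12 above 0, a median of 0.25, 2 higher at an unadjusted p below 0.05 and 0 at an adjusted p below 0.05. Their summed level with GKA was 352 ± 82.1 CPM for PP, 340.0 ± 190.1 CPM for PL and 310.3 ± 109.6 CPM for LL livers, and their part in the Abcg1 value was not tested. Nr1h3 had 0.06 (SE 0.04). Among the interactions none of the 10 passed with edgeR or DESeq2, and edgeR passed 0 of 11193 genes in all for LL and 0 of 11152 for PL (0% each). At an unadjusted edgeR p below 0.05 there were 0 of the 10, where 2.89% of genes were higher and 2.87% lower for LL, and 1.85% and 1.51% for PL. After Abcg5, Lpcat3 had the smallest p (-0.21, SE 0.12, unadjusted p 0.0906).

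Other genes of the pathway were taken as fixed lists. Of 16 further LXR targets, 15 were tested over both treatments and 0 passed an adjusted p of 0.05 for LL against PP in either direction (3.84% of all genes passed in this fit, which also stands behind the list counts that follow), with 8 above 0 and a median log2 fold change of 0.00 (0.00 over all genes). At an unadjusted p below 0.05, 0 were higher and 1 lower. Without GKA, Srebf1, the lipogenic transcription factor, averaged 190 CPM in the PP and 261 CPM in the LL livers (0.46 on the log2 scale, edgeR unadjusted p 0.0103). Over both treatments it had 0.24 (unadjusted p 0.144), and with GKA 0 of the LXR targets were higher at an unadjusted p below 0.05. Fasn, fatty acid synthase, had 1024 and 730 CPM without GKA (-0.49, unadjusted p 0.183). With GKA, Fasn averaged 1298 CPM in the PP and 645 CPM in the LL livers (-1.001, unadjusted p 0.00454, adjusted 0.216).

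Of 13 LXR partners, cofactors and oxysterol enzymes, 11 were tested and 1 rose over both treatments, Cyp46a1, which makes 24-hydroxycholesterol (log2 fold change 0.85, SE 0.24, edgeR adjusted p 0.0263). Its level was low, from a mean of 3.16 CPM for PP to 5.35 CPM for LL without GKA. Rxra, the partner receptor, had 239 and 273 CPM (0.19, unadjusted p 0.0272). Of 14 genes of HDL and cholesterol ester handling, 2 were higher at an adjusted p below 0.05 over both treatments and 0 lower. Nceh1, a neutral cholesterol ester hydrolase, went from a mean of 16.0 CPM for PP to 23.0 CPM for LL without GKA, and 0.51 over both treatments (SE 0.10, edgeR adjusted p 0.00127). Npc1, which exports cholesterol from lysosomes, had 70.7 and 88.1 CPM, and 0.33 over both treatments (SE 0.07, adjusted p 0.00346).

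Of 9 genes of canalicular lipid transport and of regulators of Abcg5 and Abcg8, 1 was higher and 1 lower in LL over both treatments at an adjusted p below 0.05. Nr1h4, the bile acid receptor FXR, averaged 66.3 CPM for PP and 85.6 CPM for LL without GKA and 66.0 and 90.7 CPM with GKA, a log2 fold change of 0.41 over both (SE 0.06, edgeR adjusted p 4.98e-05). Nr0b2, the repressor SHP that FXR induces, went the other way, with 39.2 and 22.8 CPM without GKA and 32.6 and 16.6 CPM with GKA (-0.88 over both, SE 0.17, adjusted p 0.00127). Hnf4a had -0.15 (SE 0.06, adjusted p 0.135). Set beside these, the list of 10 had 1 value below an adjusted p of 0.05 in the same fit, Lpcat3.

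Across livers, Abcg5 and Abcg8 varied together. On log2 CPM less the group mean, so that group differences do not enter, Pearson's r was 0.91 and Spearman's rho 0.87 over 55 mice (permutation p 1e-05 each, the smallest that 100000 permutations can give; adjusted over 45 pairs 0.000225 and 0.00045), and r was 0.86 without the 2 farthest mice. Within groups r was 0.82 to 0.95. Despite this, their ratio varied between livers, with log2 Abcg8 minus log2 Abcg5 at 0.18 ± 0.14 for PP, 0.43 ± 0.25 for PL and 0.25 ± 0.16 for LL livers, and 0.08 ± 0.20, 0.35 ± 0.12 and 0.36 ± 0.16 with GKA. The ranges of the groups overlapped, and differences of the ratio between groups were not tested. Of the 45 pairs, 5 had an adjusted permutation p below 0.05 for r, and 32 did on gene TPM. Only pairs of members were tested, so no share over other gene pairs stands beside these counts. They are not read as particular to the members. Scarb1 and Lcat had r 0.62 and rho 0.63 (adjusted p 0.000225 and 0.00045; 0.62 without the 2 farthest mice), and within groups 0.05 (LL with GKA) to 0.94 (PP). The other 3 were negative: Lpcat3 with Lcat had r -0.45 and rho -0.44 (adjusted permutation p 0.0204 and 0.0187), Lpcat3 with Scarb1 -0.38 and -0.41 (0.0435 and 0.0297), and Abcg1 with Lcat -0.37 and -0.31 (0.0435 and 0.122). Without the 2 farthest mice their r was -0.38, -0.33 and -0.35.

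Abca1 was compared with the canalicular genes and with Abcg1 in the same way. Abca1 with Abcg5 had r -0.35 (adjusted permutation p 0.106) and rho -0.45 (adjusted 0.0187). With Abcg8 it had r -0.17 (adjusted permutation p 0.494) and rho -0.25 (adjusted 0.254), so neither passed. Abca1 with Abcg1 had r 0.26 (adjusted 0.222). LXR alpha mRNA did not pass with any of these targets. Nr1h3 with Abcg5, Abcg8, Abca1, Abcg1, Lpcat3 and Scarb1 had r of -0.01, -0.03, -0.28, -0.16, -0.08 and 0.14, each with an adjusted permutation p above 0.05.

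Of the 10 genes, 3 correlated with the clock component across livers, again less the group mean, with the same permutation test. On gene TPM, which short transcripts distort in some livers, 0 of the 10 did. The test was run on the 10 members only. No share over all genes therefore stands beside this count, which is not read as particular to them. Abcg5 had r 0.73 and rho 0.75 and Abcg8 r 0.71 and rho 0.71 (permutation p adjusted over 10 genes 5e-05 each), and r was 0.71 and 0.69 without the 2 farthest mice. Within groups r was 0.35 to 0.96 for Abcg5 and 0.59 to 0.89 for Abcg8. Abca1 had r -0.43 and rho -0.46 (adjusted permutation p 0.0125 and 0.00437; -0.39 without the 2 farthest mice), with -0.88 to -0.11 within groups. The remaining 7 genes had r between -0.09 and 0.23.

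**Figure D5:**
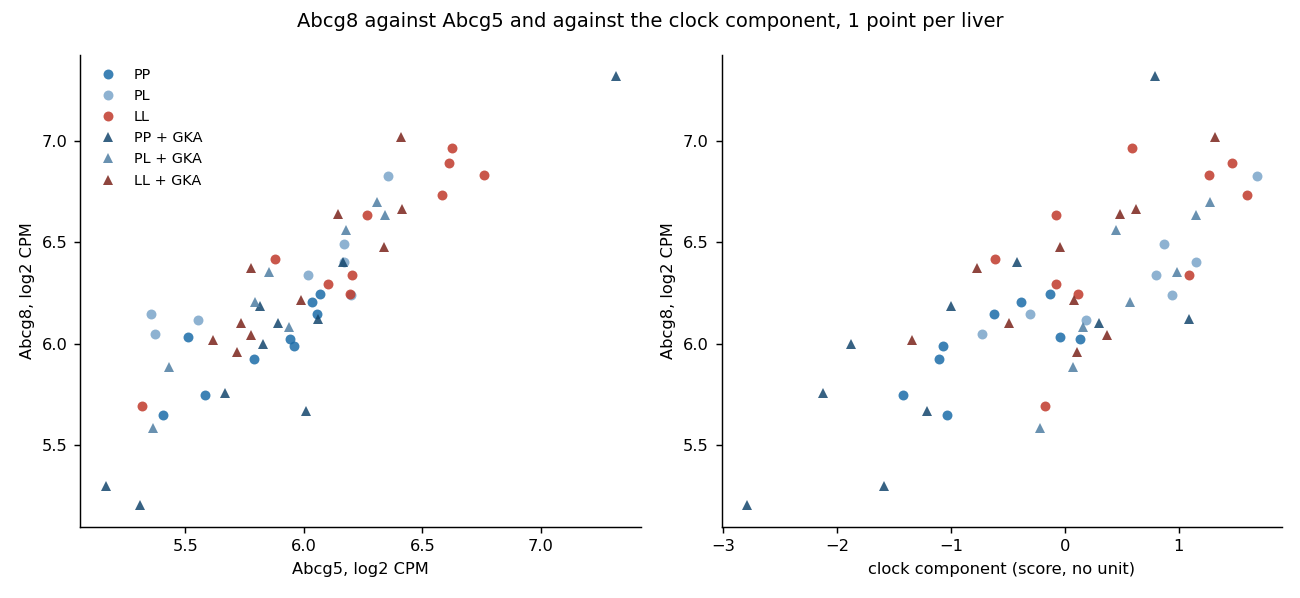
Log2 CPM of Abcg8 against Abcg5 (left) and against the clock component (right), with 1 point per liver and groups by colour and shape. Less the group means, r is 0.91 for the pair and 0.71 for Abcg8 with the clock component; PP mouse 14 with GKA is the point at the top of both panels.

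Of 11476 other genes, those most like a member across the 55 livers were named as a description, with Pearson's r on the same scale. Genes without an established symbol (Gm and Rik names) were passed over. After Abcg8 (0.91), Abcg5 was most like Uox, urate oxidase (0.74), and Gpt, alanine aminotransferase (0.73). Abcg8 was most like Abcg5, then Tef, a clock output factor that is in the clock list (0.75), and Upp2, uridine phosphorylase (0.75). Abca1 was most like Rnf213 (0.88), Vps13c (0.86) and Slc10a5 (0.86). All points share the depth and RNA quality of their library.

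Reads summed per gene can hide a change of transcript. The leading transcript held 94.3 ± 4.92% of the Abcg5 reads and 99.3 ± 1.25% of the Abca1 reads over 55 livers. That of Abcg8 held 73.6 ± 10.9% and the next, Abcg8-203, 25.3 ± 10.6% of the Abcg8 reads. As quantified, these had mean effective lengths of 3209 and 1826 bases. The leading Scarb1 transcript held 75.2 ± 12.7% of its reads and Scarb1-202 12.7 ± 13.3%. The share of the leading transcript was compared between PP and LL for 7 genes, without and with GKA (14 two-sided permutation tests, exact with n = 9), and 0 passed after adjustment. For Abcg8 without GKA it was 73.5 ± 8.64% in PP and 73.9 ± 12.6% in LL (exact permutation p 0.946). The lowest p was for Nr1h2-202 with GKA, with 50.7 ± 16.7% in PP and 17.0 ± 31.5% in LL (permutation p 0.00896, adjusted 0.125), at 76 to 204 Nr1h2 reads per liver. Abca1 with GKA was next, with 98.8 ± 1.398% and 99.9 ± 0.472% (permutation p 0.0237, adjusted 0.166).

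Promoter windows from RefSeq (GRCm38.p6), 250 bases before to 50 after the start, were given for 7 of the 10 genes (9 windows of 32851) and searched on both strands for 4 letter patterns, with overlaps allowed. The LXR pattern DR4 (NGGTNA repeated after 4 bases) was in 1 member window, that of Abca1, and in 0.718% of all windows. It is shown on the minus strand, the strand of Abca1, at its place in GRCm39 (chr4:53159940-53159969), with the match, which is to the complement, in capitals. It lies 47 bases upstream of the start of the leading Abca1 transcript in GENCODE vM39.
Abca1 DR4 letters: cagcgttTGACCGGTAGTAACCCcggcgct
AGATAA was in the windows of Abcg5, Abcg8 and Lcat and in 11.2% of all windows, and the windows of Abcg5 and Abcg8 overlap. DR1 (AGNNCA repeated after 1 base, here with A between, 0.670% of windows) and AGGTCA (16.3%) were in 0 of the 9 windows. A match is a run of letters, not a bound site.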

How the data were processed

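Total liver RNA of 56 mice was sequenced, and how the libraries were made and their strand are not given in the sources used here. The authors kept RNA with an integrity number above a set limit, checked reads with FastQC, trimmed none, and ran Salmon 1.4.0 (submitters' processing notes) on mouse transcripts of GENCODE M26 (GRCm39). The deposited NumReads column is an estimated count for each transcript, with no normalisation. The deposited TPM column is scaled by effective length. In the TPM, transcripts with an effective length under 50 bases took 0.0445% to 76.3% of the total, so TPM was used only in alternatives. Length and effective length were also deposited.

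Here 137570 of 139225 transcripts (98.8%) were assigned to GENCODE vM39 genes (GRCm39) by identifier. Estimated counts were summed per gene and rounded. The tests were edgeR 4.0.16 quasi-likelihood tests (R 4.3.3, TMM, filterByExpr) over all genes, with 2 groups per fit for the 9 pairwise comparisons, genotype and GKA as terms over 55 mice, and 4 groups for each interaction. Values were adjusted by Benjamini-Hochberg over all genes tested, and a DEG had an adjusted p below 0.05 and a fold of at least 1.3 or at most 0.7 (no fold limit for interactions). These thresholds and the exclusion of PP mouse 7 follow the study, which used DESeq2. CPM used TMM library sizes, and log2 CPM a prior count of 2. RPKM summed reads per kilobase of effective length over protein-coding transcripts of at least 1000 bases, a limit set after seeing that short transcripts inflated it. Correlations used 100000 permutations of mice within groups, and SciPy 1.17.1 was used for transcript shares. Scripts were tested on simulated counts.

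All 10 members in every comparison, Gckr and the named lists were the genes to be named, and the members and lists were chosen with earlier results of these data known. Groups came from the labels, which give no litter, batch or harvest time. Mice are separate animals. Within groups the lowest chi-square between 2 mice was 11.3 per degree of freedom, and every mouse was counted as its own sample. Alternatives were DESeq2 1.42.0, RLE scaling, no filter, a transcript length offset, protein-coding transcripts, the clock component as covariate (16 genes), PP mouse 7 kept, all 6 groups in 1 fit, gene TPM for the correlations, and leaving out each mouse. Leaving out each mouse in the fit over both treatments was chosen after seeing the data. The genes most like Nr1h3 across livers are not reported here.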

Additional observations from a re-analysis of the deposited data

Results flagged for a closer look

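Of 60 sets of values (10 genes in 6 groups), 5 held 1 mouse that stood apart from its group by Dixon's criterion, which chance alone gives in about 1 of 20 groups. Abcg5 was 159 CPM in PP mouse 14 with GKA, and Abcg8 was 159.5 CPM in the same mouse, each the highest of its group of 10. That mouse ranked 15 of 55 on the clock component. Abcg1 was 8.36 CPM in PL mouse 29 with GKA, the highest of 8. The same liver had the highest summed macrophage markers of the 55, at 804 CPM, and the part of these cells in the Abcg1 value was not tested. Abcg1 was 7.49 CPM in LL mouse 48 with GKA, the highest of 10. That liver ranked 2 of 55 on the summed macrophage markers, at 548 CPM, and their part was again not tested. Soat2 was 12.7 CPM in PP mouse 9 without GKA, the lowest of 9.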

How the results depend on the processing

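No paired analysis was possible because each mouse has a number of its own and the groups share none. For all values below the cause was not tested. With DESeq2 1 of the 10 genes, Abcg8, was called for LL against PP without GKA and 1, Abcg8 again, over both treatments, against 0 with edgeR. Leaving out 1 mouse gave 0 to 2 calls without GKA (2 without LL mouse 42) and 0 to 1 over both treatments. The shares of all genes called in these fits are not reported here. On gene TPM, 32 of 45 pairs correlated instead of 5, and 0 genes correlated with the clock component instead of 3. No shares over other gene pairs or over all genes stand beside these counts.

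Several values turned sign, none of which passed the test. With a transcript length offset Abca1 (0.28) and Nr1h2 (-0.49) did so for LL against PP without GKA, Abcg1 (0.27) and Nr1h2 (0.26) with GKA, Abcg1 over both treatments (0.26), and Nr1h2 for LL against PL with GKA (0.42). With the clock component Abca1 did so without GKA (0.20), with GKA (0.0746) and over both treatments (0.12), as did Abcg8 with GKA (-0.0085) and Abcg5 over both treatments (-0.16). With protein-coding transcripts Nr1h3 was 0.0275 without GKA, -0.0072 with GKA and 0.0035 over both treatments, Abca1 was 0.0044 with GKA and Nr1h2 0.0150 over both. Nr1h3 with GKA was -0.0019 with DESeq2, -0.0039 with RLE scaling, -0.0062 without a filter and -0.0063 with all 6 groups in 1 fit. Abcg1 was -0.12 with PP mouse 7 kept. Leaving out 1 mouse gave, without GKA, -0.10 to 0.12 for Abcg1, -0.0550 to 0.0042 for Nr1h3 and -0.0015 to 0.12 for Soat2. With GKA it gave -0.0926 to 0.23 for Abcg5, -0.0805 to 0.0458 for Abca1 and -0.0250 to 0.0178 for Nr1h3, and over both treatments -0.0315 to 0.0136 for Nr1h2.

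The edgeR adjusted p of Lpcat3 over both treatments was 0.0992 without a filter and 0.578 with the length offset. It was above 0.05 without any 1 of 20 mice, namely PP mouse 1, 4, 5, 8, 9 or 10, PP mouse 12, 13, 15 or 19 with GKA, LL mouse 38, 39, 40, 41, 45 or 46, or LL mouse 47, 52, 54 or 56 with GKA. Leaving out mice in the fit over both treatments was chosen after seeing the data. Abcg1, at 3 to 63 reads per liver, is the gene most limited by depth.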
